A study of Homo sapiens with 18 samples.

Results

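MDA-MB-468 cells that received no OTX015, an inhibitor of the BET bromodomain proteins, were profiled at 4, 8 and 24 h, and the question asked here is what changed in them with time alone. These samples were chosen by their labels: all arrays of the MDA-MB-468 line that were untreated or given the vehicle DMSO, which are 6 of the 18 arrays of the series. MDA-MB-468 is an established human triple-negative breast cancer line with an epithelial, basal-like phenotype and an amplified EGFR gene, and no genetic change was introduced into it. Each array is a bead microarray that reads the RNA of 1 sample as the brightness of one probe per transcript or part of a transcript. At each time there was 1 DMSO array and 1 untreated array, so the 2 arrays of a time served as its samples. Nothing in the labels says that arrays came from separate cultures, so each p-value measures only the spread between these arrays, which may be technical. The 6 arrays of MDA-MB-231, a mesenchymal-like triple-negative line handled in the same way, were used to ask where the 2 lines differed, and no array with OTX015 entered a test.

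In a dish that is not refed, cells use up glucose, amino acids and serum factors while they grow denser, and a change of medium or handling sets off a brief wave of immediate early genes, which encode transcription factors such as FOS, EGR1 and ATF3. A shortage of amino acids, haem or folding capacity activates kinases that slow protein synthesis but favour translation of the transcription factor ATF4, whose targets make, import and load amino acids. This is background on cultured cells, and neither nutrients nor density was measured here.

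Deposited signals were log2 transformed after background correction and quantile normalization over all 18 arrays, and values below are on that log2 scale, where 1 unit is a doubling of signal, unless named otherwise. A probe was tested if it exceeded, on at least 2 arrays, a floor set by the olfactory receptor probes of each array, and a probe was called if its Benjamini-Hochberg adjusted p from limma was at most 0.05 and its log2 fold change at least 0.5 in size. Mean raw signals were 452 to 503.3 at 4 h, 259 to 325 at 8 h and 303 to 336 at 24 h, and 18583 to 20254 probes lay above the floor on each array; the part of signal level in the results was not tested. Of 10 genes that mark MDA-MB-468, 9 were above the floor on all 6 arrays and none was absent from all of them. Of 10 genes that mark MDA-MB-231, 6 were above it on all 6 arrays, while ZEB1, CDH11 and SPARC were above it on none. On the 6 MDA-MB-231 arrays without OTX015, 9 of these 10 were above it throughout, but SPARC was above it on none there either. Of 21 genes of stromal, immune and endothelial cells, 4 were above it on all 6 MDA-MB-468 arrays, namely CD14, CD68, HLA-DRA and ACTA2. COL1A1 was above it on 5, and 9 were above it on none, among them PTPRC, CD3D, VWF and COL1A2. DMSO and untreated arrays did not differ by the test: 0 of 21665 probes were called (0%), the lowest adjusted p by limma was 0.961, and 522 probes had an unadjusted p under 0.05.

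Between 24 h and 8 h few probes passed, and the named ones belonged to amino acid metabolism, AP-1, Wnt signalling and the hypoxia response. CTH and FOSB rose and DKK1 and NDRG1 fell, each by close to 1 log2 unit, and 2 probes without a gene symbol passed as well, with log2 fold changes of 0.84 and -1.17. In all, 6 of 21665 probes were called (0.0277%), 3 higher (0.0138%) and 3 lower (0.0138%), while 3444 had an unadjusted p under 0.05. The spread that the 3 times share rested on 3 residual degrees of freedom, and the median standard error was 0.10. No probe was called with median scaling of the arrays, with DMSO or untreated as a block, or when any 1 of the 4 h or 8 h arrays was left out. Without either of the 24 h arrays more probes passed, the 6 among them, but the spread then came only from the pairs of 4 h and 8 h. The DMSO minus untreated difference had an SD over probes of 0.11 at 4 h, 0.14 at 8 h and 0.26 at 24 h. Fits without a 24 h array therefore could not test the 6 calls.

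CTH encodes cystathionine gamma-lyase, which releases cysteine from cystathionine. Its strongest probe read 8.27 on the DMSO array and 8.18 on the untreated array at 24 h, against 7.01 on the DMSO array and 7.16 on the untreated array at 8 h. Both 24 h arrays lay above both 8 h arrays, and the difference was 1.27 with DMSO and 1.01 without. The log2 fold change was 1.14 (SE 0.090, limma adjusted p = 0.0208). The 4 h arrays, at 7.54 with DMSO and 7.51 untreated, lay between those of the other times, and CTH at 8 h was 0.44 below them (adjusted p = 0.0109, short of the fold required). Another CTH probe, at 7.09 and 6.92 at 24 h against 6.63 and 6.39 at 8 h in the same order, also had groups that did not overlap, with a log2 fold change of 0.49 (adjusted p = 0.139), and a further probe, not above the floor at 8 h, had 0.26. In MDA-MB-231 the log2 fold change of CTH between 24 h and 8 h was 0.13, and the difference between the lines was 1.01 (adjusted p = 0.0113). By the other probes this difference was 0.28 (adjusted p = 0.596) and 0.20 (adjusted p = 0.712), so the call rests on 1 probe.

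CTH is a member of a list of 30 genes induced through ATF4 or by amino acid shortage, 29 of which had a probe with 1 gene symbol and 26 of which were tested. All 26 of these had a log2 fold change above 0, against 52.1% of the 12059 genes tested by their brightest probe, and their median was 0.42, against 0.01 over all genes. Of the 26, 1 passed the test (0.0166% of all genes did so upward), 11 reached 0.5 (1.39% of all genes), and 22 had an unadjusted p under 0.05 with a higher level at 24 h (10.5% of all genes). In 24 of the 26, both 24 h arrays lay above both 8 h arrays, which was so for 25.2% of all genes, and in 24 the difference was positive both with DMSO and without. The medians within a treatment were 0.40 for the DMSO arrays and 0.46 for the untreated arrays. The exceptions were SESN2, a leucine sensor, at -0.03 with DMSO and 0.36 without, and XPOT, the exporter of tRNA from the nucleus, at 0.54 with DMSO and -0.53 without. The list was drawn up with earlier results of these arrays known. The median was positive under every other way of processing that was tried, and with each array scaled to a common median in place of quantile normalization it was 0.61, where the median of all probes was 0.09.

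**Figure D1:**
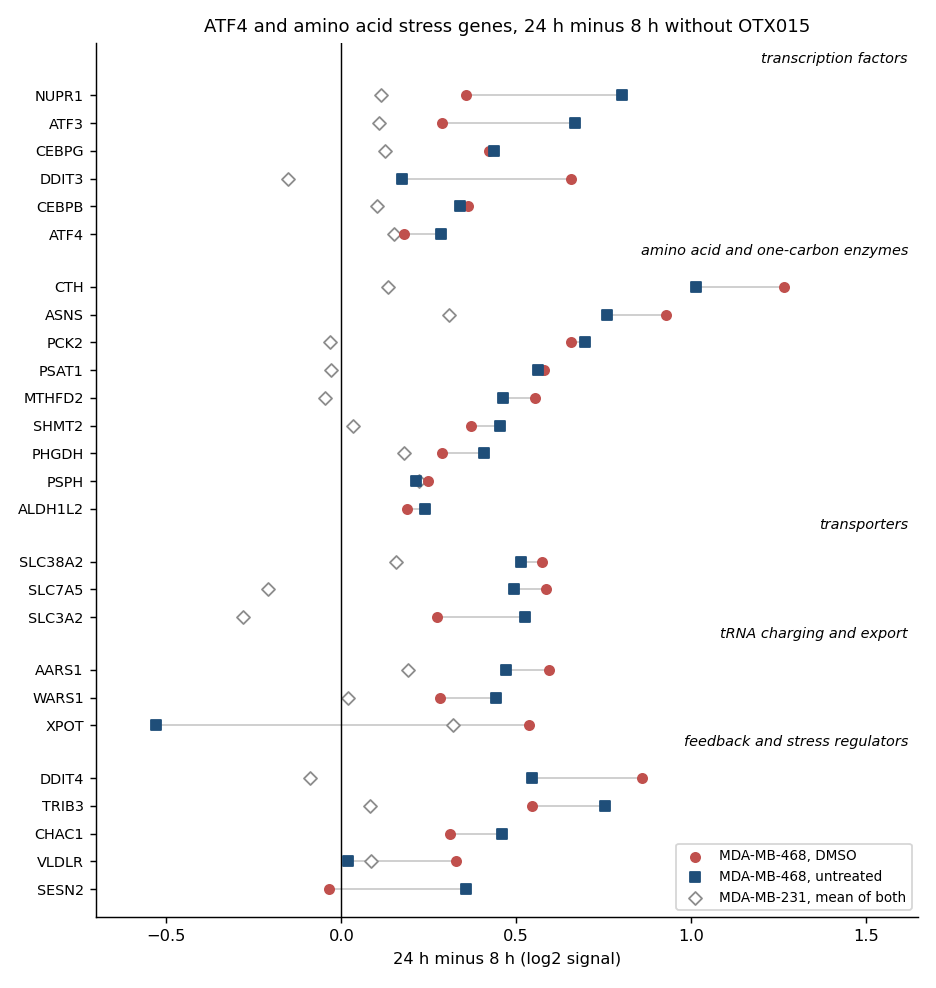
Log2 difference between 24 h and 8 h for the 26 tested genes of the ATF4 list, by role, in MDA-MB-468 with DMSO (circles) and untreated (squares), 1 array per time and treatment, and the mean of both treatments in MDA-MB-231 (open diamonds, where the probe was tested). Apart from XPOT and SESN2, both MDA-MB-468 values lie above 0, and CTH lies furthest out with 1.27 and 1.01.

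Among the enzymes, ASNS, which makes asparagine, came closest to a call. It read 10.98 with DMSO and 10.87 untreated at 24 h, against 10.05 with DMSO and 10.11 untreated at 8 h, and its 4 h arrays read 10.63 and 10.47 in the same order. The log2 fold change between 24 h and 8 h was 0.84 (SE 0.093), with an adjusted p of 0.0572 by limma, just outside the threshold. PCK2, the mitochondrial form of phosphoenolpyruvate carboxykinase, read 10.06 and 10.01 at 24 h against 9.40 and 9.31 at 8 h with DMSO and untreated in turn, a log2 fold change of 0.68 (adjusted p = 0.0757). The 3 enzymes of serine synthesis had log2 fold changes of 0.35 for PHGDH, 0.57 for PSAT1 and 0.23 for PSPH, and the mitochondrial folate enzymes had 0.41 for SHMT2, 0.51 for MTHFD2 and 0.21 for ALDH1L2. None of these passed the test.

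The transporters of the list had log2 fold changes of 0.40 to 0.54. SLC7A5, the light chain of the large neutral amino acid exchanger, read 10.64 and 10.55 at 24 h against 10.05 and 10.05 at 8 h with DMSO and untreated in turn, a log2 fold change of 0.54 (adjusted p = 0.0954). Its heavy chain SLC3A2 had 0.40 and SLC38A2, a carrier of small neutral amino acids, had 0.54. Of the enzymes that load tRNA, AARS1 for alanine had 0.53 and WARS1 for tryptophan had 0.36. Each of these 5 genes had 24 h arrays above both 8 h arrays and missed the test.

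Of the transcription factors, ATF4 itself, which is set mainly by translation, had a log2 fold change of 0.23, with 13.03 and 13.13 at 24 h against 12.85 and 12.84 at 8 h with DMSO and untreated in turn. Its partners and targets had larger values: 0.58 for NUPR1, 0.48 for ATF3, 0.43 for CEBPG, 0.41 for DDIT3 and 0.35 for CEBPB. Among regulators downstream, DDIT4, an inhibitor of mTORC1, read 11.64 with DMSO and 11.42 untreated at 24 h, against 10.78 with DMSO and 10.88 untreated at 8 h, a log2 fold change of 0.70 (adjusted p = 0.0861). TRIB3, a pseudokinase induced by ATF4, had 0.65, CHAC1, which degrades glutathione, had 0.38, and VLDLR, a lipoprotein receptor, had 0.17. None of the members in these roles was called between 24 h and 8 h.

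The list did not move in the same way between 8 h and 4 h. Its median there was -0.19, where all probes had -0.08, and 1 member rose (7.42% of all genes did so), DDIT4 by 1.05, while 2 fell (4.09% of all genes), with ATF3 at -1.68 and XPOT at -0.83. These counts depended on scaling: with median scaling the list had a median of -0.996, where all probes had -0.52, and DDIT4 had 0.13 (adjusted p = 0.582). In that setting 22 members were called lower and none higher, where 11094 of 21665 probes were called lower and 997 higher. Between 24 h and 4 h the median was 0.33, with 5 members higher and 2 lower, where 7.57% of all genes were called higher and 5.61% lower. This order of 24 h and 4 h also depended on scaling. With median scaling most members fell more from 4 h to 8 h than they rose from 8 h to 24 h, such as ASNS with -1.35 and 1.01. CTH and DDIT4 were among those that went the other way. The level of the group, as the mean log2 signal of the 26 genes, was therefore lowest at 8 h in these arrays. In MDA-MB-231, 23 members were tested between 24 h and 8 h, 16 were positive (52.1% of all genes were), 5 had an unadjusted p under 0.05 upward (8.28% of all genes) and 2 downward, the median was 0.10, and none passed. The difference between the lines was positive for 24 of 26 members with a median of 0.37, where all genes had 0.01. The 26 include members not tested in MDA-MB-231, whose difference can hold little more than the change in MDA-MB-468. The difference passed for 4 of the 26, CTH, DDIT4, SLC7A5 and PCK2, where 0.0167% of all probes were called more positive in MDA-MB-468.

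ATF4 binds with C/EBP proteins to a composite element whose core reads TGATGNAA, so the 250 bases before each gene's start were searched on both strands for these letters (TTNCATCA on the other strand). RefSeq promoters of GRCh38.p14 were at hand for 22 of the 26 members, and 5 of them held the element at a listed start: ASNS, AARS1, ATF3, CEBPG and CHAC1. Over all promoters the share was 3.14% of 35116, and over all genes 3.89% of 27305. Both counts describe letters only, and a match is not a measured site. The promoters of an enzyme, a transcription factor, a tRNA ligase and a glutathione enzyme with the element are printed 5′ to 3′ in the direction of the gene, with the matched letters in capitals: ASNS at chr7:97872409-97872658 on the minus strand, with the match at -68 to -61 from the start; CEBPG at chr19:33373863-33374112 on the plus strand, with the match at -42 to -35; AARS1 at chr16:70289507-70289756 on the minus strand, with the match on the opposite strand at -187 to -180; and CHAC1 at chr15:40953221-40953470 on the plus strand, with the match on the opposite strand at -209 to -202.
ASNS: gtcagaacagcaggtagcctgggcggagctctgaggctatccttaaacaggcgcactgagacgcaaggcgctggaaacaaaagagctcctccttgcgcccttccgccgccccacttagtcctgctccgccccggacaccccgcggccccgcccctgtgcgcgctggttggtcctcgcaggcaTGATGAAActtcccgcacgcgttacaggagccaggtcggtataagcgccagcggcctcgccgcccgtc
CEBPG: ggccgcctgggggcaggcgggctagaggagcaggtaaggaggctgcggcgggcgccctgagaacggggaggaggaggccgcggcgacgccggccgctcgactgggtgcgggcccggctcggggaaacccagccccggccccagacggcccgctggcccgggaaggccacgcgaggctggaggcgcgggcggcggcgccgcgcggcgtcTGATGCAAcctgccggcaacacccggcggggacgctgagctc
AARS1: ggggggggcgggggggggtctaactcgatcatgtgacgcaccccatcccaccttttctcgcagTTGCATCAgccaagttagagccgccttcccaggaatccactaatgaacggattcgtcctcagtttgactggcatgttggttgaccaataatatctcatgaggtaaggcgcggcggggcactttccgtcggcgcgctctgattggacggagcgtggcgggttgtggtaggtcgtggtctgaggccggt
CHAC1: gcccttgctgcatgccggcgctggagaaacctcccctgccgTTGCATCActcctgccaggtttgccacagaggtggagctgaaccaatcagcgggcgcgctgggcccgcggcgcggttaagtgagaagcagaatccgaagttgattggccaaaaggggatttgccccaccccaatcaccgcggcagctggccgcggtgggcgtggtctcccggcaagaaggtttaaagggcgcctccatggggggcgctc

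FOSB, a subunit of the AP-1 transcription factor, was the other named gene that rose. It read 9.61 with DMSO and 9.75 untreated at 24 h, against 8.72 with DMSO and 8.42 untreated at 8 h, so the groups did not overlap. The log2 fold change was 1.11 (SE 0.11, limma adjusted p = 0.0459). The 4 h arrays read 9.20 and 9.16 with DMSO and untreated in turn, and FOSB at 8 h had fallen by 0.60 relative to them (adjusted p = 0.00778). In MDA-MB-231 the log2 fold change between 24 h and 8 h was 0.36, and the gap of 0.74 between the lines missed the threshold (adjusted p = 0.301).

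Among 25 tested immediate early genes, FOSB was the only one called between 24 h and 8 h (0.0166% of all genes were called higher). A log2 fold change above 0 was found in 16 (52.1% of all genes), an unadjusted p under 0.05 upward in 10 (10.5% of all genes), and the median was 0.13. JUN, another AP-1 subunit, read 11.11 and 11.38 at 24 h against 10.65 and 10.64 at 8 h with DMSO and untreated in turn, a log2 fold change of 0.60 that missed the test (adjusted p = 0.111). ATF3 and FOS had 0.48 and 0.46, KLF6 and CCN1 had 0.43, and KLF4 had -0.33.

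The step from 4 h to 8 h looked different in this family. Of the 25 genes, 10 fell at 8 h relative to 4 h (4.09% of all genes did so) and 2 rose (7.42% of all genes), with a median of -0.44. ATF3, a stress-induced repressor, read 8.57 and 8.50 at 8 h against 10.29 and 10.16 at 4 h with DMSO and untreated in turn, and fell by 1.68 (SE 0.12, adjusted p = 6.5e-05). FOS read 10.29 on both arrays at 8 h, against 11.33 with DMSO and 11.37 untreated at 4 h, and fell by 1.06 (adjusted p = 0.000811). KLF10, IER2, EGR3, KLF4, NR4A3, CCN2, NR4A2 and FOSB fell by 0.92 to 0.60. The 2 that rose were EGR1, by 0.64, which had -0.29 when arrays were scaled to a common median, and JUNB, by 1.58, whose probe belongs to a set described below that was low only at 4 h. In MDA-MB-231, where this step was not tested, the mean level of the 25 genes was also lower at 8 h. It was 9.02 with DMSO and 8.99 untreated at 8 h, against 9.31 and 9.29 at 4 h. There ATF3 read 7.19 and 7.18 against 8.19 on both, and FOS 8.34 and 8.13 against 9.75 and 9.90, in the same order.

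**Figure D2:**
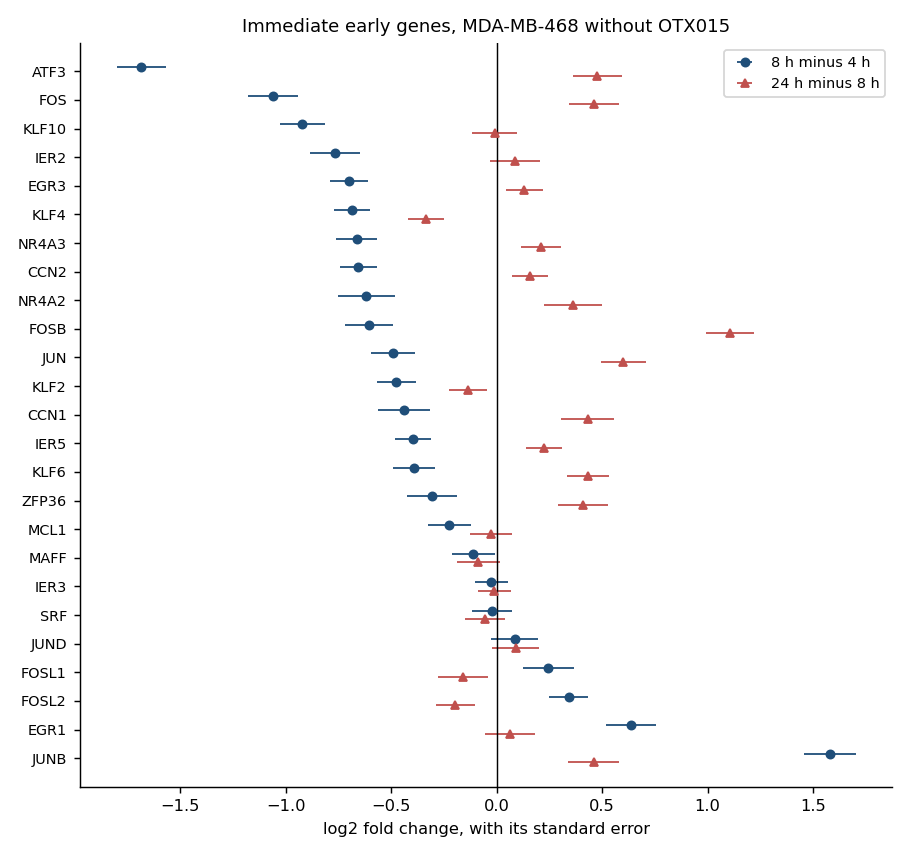
Log2 fold change with its standard error for the 25 tested immediate early genes in MDA-MB-468 without OTX015, for 8 h minus 4 h (circles) and 24 h minus 8 h (triangles), 2 arrays per time. Most circles lie left of 0, with ATF3 at -1.68, while FOSB at 1.11 is the triangle furthest to the right.

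Members of 4 other lists also fell from 4 h to 8 h, and what set this off was not tested. Of 19 tested genes of MAPK feedback, 3 fell and 1 rose, DUSP4 by 0.96, with a median of -0.17. DUSP1, a phosphatase that shuts off MAP kinases, read 9.85 and 9.51 at 8 h against 11.36 and 11.37 at 4 h with DMSO and untreated in turn, and fell by 1.68 (adjusted p = 0.00028). IL6, a cytokine, read 7.03 and 6.81 against 8.49 and 8.68 in the same order and fell by 1.67 (adjusted p = 5.44e-05). In a list of 25 tested genes of NF-kB and cytokines, 8 fell and 2 rose, where 4.09% of all genes fell and 7.42% rose. The genes that fell included CXCL2 by 1.20, CCL20 by 0.95, CXCL8 by 0.66 and TNFAIP3 by 0.61, and both that rose, TNFAIP2 and BCL3, have probes of the set low only at 4 h. Of 17 targets of YAP and TEAD, which respond to density and tension, 8 fell and none rose, with a median of -0.44, among them F3 by 0.92, GADD45A by 0.90 and PTPN14 by 0.83. Of 19 genes of TGF-beta and BMP feedback, 5 fell and none rose, among them SMAD6 by 0.85, ID2 by 0.82 and ID3 by 0.74. Of the NF-kB, YAP and TGF-beta lists, in this order, 6, 5 and 4 members fell without background correction and 5, 5 and 4 with the deposited log2 values. With arrays scaled to a common median 18, 15 and 14 fell, with list medians of -0.95, -1.08 and -0.89 where all probes had -0.52. In that setting 11094 of 21665 probes were called lower, so these larger counts go with a shift of most probes. The OTX015 array of 4 h, which entered no test, lay near or above the undrugged arrays of 4 h at some of these genes and below them at others. It read 10.31 for ATF3, 11.74 for FOS, 10.39 for FOSB and 11.87 for DUSP1, but 8.42 for IL6, 7.25 for CXCL2 and 7.46 for CCL20. In MDA-MB-231 DUSP1 read 11.10 with DMSO and 11.05 untreated at 8 h, against 11.65 and 11.88 at 4 h. In the same order IL6 read 7.79 and 7.44 against 8.26 and 8.34 there. The mean level of the YAP list was 8.59 and 8.57 against 8.67 and 8.66. That of the TGF-beta list was nearly level, at 7.42 and 7.46 against 7.41 and 7.46.

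Of the genes that fell between 24 h and 8 h, DKK1 encodes a secreted antagonist of Wnt signalling. It read 8.21 with DMSO and 8.05 untreated at 24 h, against 9.13 with DMSO and 9.21 untreated at 8 h, and fell by 1.04 (SE 0.11, limma adjusted p = 0.0459). At 4 h it had read 10.12 and 9.90 with DMSO and untreated in turn, and the 8 h level was lower than that by 0.84 (adjusted p = 0.00143), so DKK1 was lower at each later time. In MDA-MB-231 it had -0.03 between 24 h and 8 h.

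NDRG1, a gene induced by hypoxia and iron depletion, read 7.53 with DMSO and 7.36 untreated at 24 h, against 8.50 with DMSO and 8.37 untreated at 8 h, and fell by 0.99 (SE 0.094, adjusted p = 0.0459). Its 4 h arrays read 8.74 on both treatments. Among 22 tested hypoxia-induced genes outside glycolysis it was the only one called (0.0166% of all genes fell), 14 had a log2 fold change below 0 and 8 above, and the median was -0.07, which turned to 0.06 with median scaling. EGLN1 and BNIP3 had -0.39 and -0.34, while STC2, a secreted glycoprotein, and DDIT4 had 0.89 and 0.70. Members of this list thus lay on both sides.

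**Figure D3:**
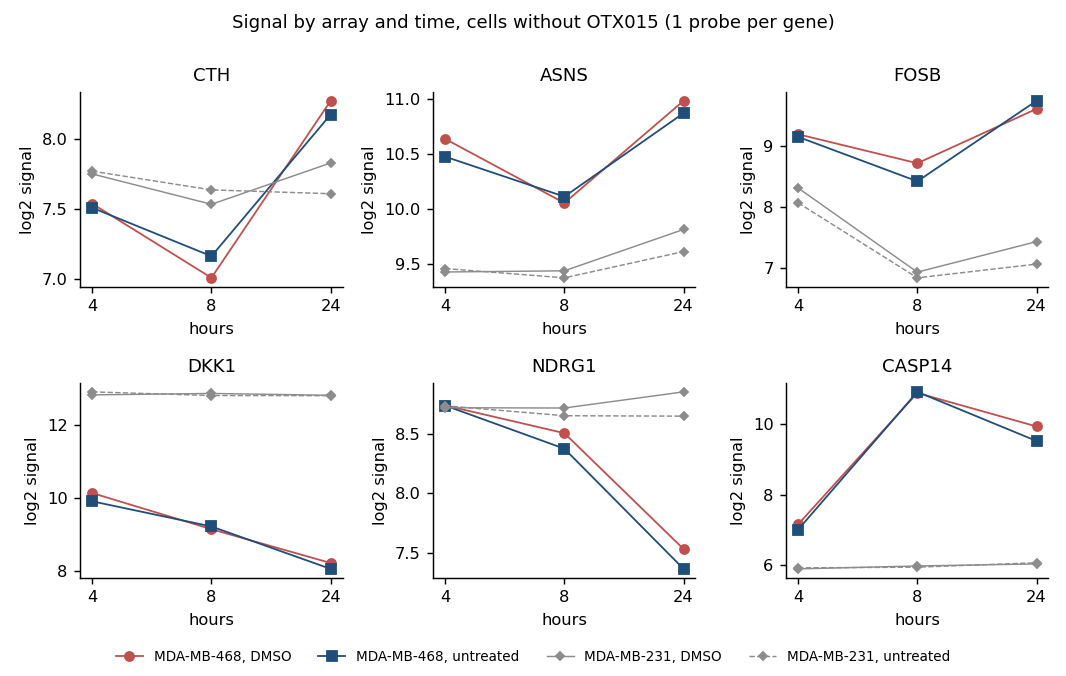
Log2 signal of 6 genes at 4, 8 and 24 h on each array without OTX015, in MDA-MB-468 with DMSO (circles) and untreated (squares) and in MDA-MB-231 (diamonds), 1 array per point. CTH, ASNS and FOSB are lowest at 8 h in MDA-MB-468, DKK1 and NDRG1 are lowest at 24 h, and CASP14 is lowest at 4 h.

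Other genes with a large negative log2 fold change between 24 h and 8 h did not pass. CASP14, the caspase of keratinocyte cornification, read 9.94 and 9.52 at 24 h against 10.89 and 10.92 at 8 h with DMSO and untreated in turn, a log2 fold change of -1.18 (adjusted p = 0.0736), although it averaged only 7.07 over the 4 h arrays. KLK5, a protease of the epidermis, had -0.75 by 1 probe and -0.28 by its brightest, and was also low at 4 h. KRT15, a basal keratin, had -0.72, and CPM, a membrane carboxypeptidase, had -0.83. SLC38A1, an amino acid carrier, had -0.88, RBM3, a cold-induced RNA-binding protein, had -0.72, CHMP3, a part of the ESCRT complex, had -0.81, and C1orf122 had -0.74. The small nucleolar RNA SNORD13 had -0.83. RNA28SN5, a 28S ribosomal RNA, had -1.54, with 8.31 with DMSO and 7.06 untreated at 24 h against 9.18 and 9.26 at 8 h, and its adjusted p was 0.139. Another RNA28SN5 probe had -0.39. In MDA-MB-231 these probes had -0.998 (adjusted p = 0.0424, a call) and -1.07 (adjusted p = 0.106).

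The largest rises that did not pass were of another kind, because they were seen on the untreated 24 h array and hardly on the DMSO one. FKBP14, a prolyl isomerase of the endoplasmic reticulum, read 10.53 with DMSO and 11.45 untreated at 24 h, against 10.25 with DMSO and 9.90 untreated at 8 h, a log2 fold change of 0.92 with an adjusted p of 0.207. ZNF549, LMOD3, ZNF69, EXO5, SHROOM4, BLZF1 and MYO3B showed the same split: over these 8 genes the difference was 0.01 to 0.36 with DMSO and 1.30 to 1.70 untreated, and it was -0.15 to -0.33 in MDA-MB-231. All of them apart from BLZF1 and MYO3B have probes of the set low only at 4 h, where FKBP14 read 8.14 and 8.56 with DMSO and untreated in turn. STC2 and ASNS were the exceptions among the 10 largest, with 0.82 and 0.93 with DMSO and 0.97 and 0.76 untreated. Further probes of FKBP14, ZNF549 and ZNF69 showed no rise of this size. That of FKBP14 read 8.46 on both arrays at 24 h, against 8.54 with DMSO and 8.37 untreated at 8 h. For EXO5 a further probe was also nearly level, but another was higher at 24 h on the untreated array only. At these genes the split was thus seen by some probes and not by others.

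This split held for many probes. Of the 278 probes with a log2 fold change of at least 0.5 between 24 h and 8 h, 42 reached 0.5 in both treatments, 20 in the DMSO arrays only and 216 in the untreated arrays only. Of the 129 probes at -0.5 or below, the counts were 33, 15 and 81 in the same order. The arrays of 1 time differed accordingly: DMSO and untreated differed by at least 0.5 at 26 probes at 4 h, 46 at 8 h and 1229 at 24 h, and at 76, 21 and 33 probes at those times in MDA-MB-231. The correlation of the log2 values over probes was 0.998 between the pair of 4 h arrays, 0.996 between those of 8 h and 0.988 between those of 24 h, a description across probes that share arrays. With 1 array per treatment and time, a difference between treatments and one between dishes or arrays cannot be told apart.

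**Figure D4:**
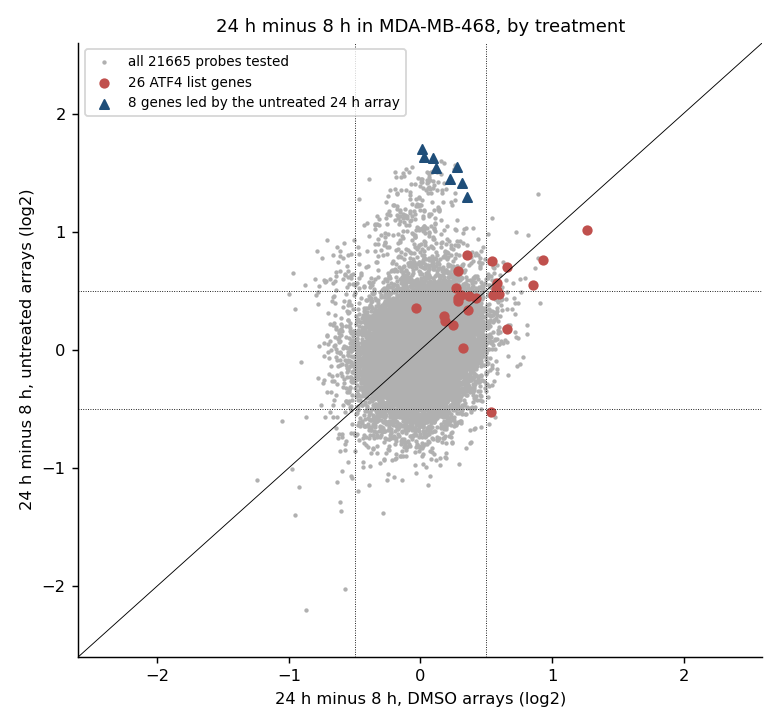
Log2 difference between 24 h and 8 h in the DMSO arrays (horizontal) and in the untreated arrays (vertical) of MDA-MB-468, for all 21665 probes tested (grey), the 26 genes of the ATF4 list (circles) and 8 genes led by the untreated 24 h array (triangles), with dotted lines at -0.5 and 0.5. Most ATF4 genes lie near the diagonal, while the 8 genes lie at 1.30 to 1.70 on the vertical axis and 0.01 to 0.36 on the horizontal one.

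Lists of metabolism, growth and cell type had smaller values between 24 h and 8 h, and none of their members passed apart from those named above. Of 9 tested genes of fatty acid synthesis, 6 were positive with a median of 0.20, led by ACSS2 at 0.57, which makes acetyl-CoA from acetate, and SCD, the stearoyl-CoA desaturase, at 0.41. SCD had 0.60 in MDA-MB-231, where the median of this list was 0.15. Of 19 genes of cholesterol synthesis and uptake, 17 were positive with a median of 0.10, the same as in MDA-MB-231. Of 13 clock genes 11 were positive with a median of 0.18, among them BHLHE40 at 0.42 and TEF at 0.35.

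Lists with a median below 0 lay close to it. Of 20 glycolytic genes 14 were negative with a median of -0.07, which became 0.01 with median scaling. In 6 of the 20 the unadjusted p was under 0.05 with a lower level at 24 h, which was so for 6.67% of all genes, and in 11 both 24 h arrays lay below both 8 h arrays, where 19.9% of all genes did so. The lowest were GPI at -0.60, PGAM1 at -0.53, whose signal may include that of its near copy PGAM4, and ALDOA at -0.45, while PFKFB4 had 0.50. Of 32 genes of the nucleolus and ribosome biogenesis 23 were negative with a median of -0.09, which became 0.06 with median scaling, and 16 had 24 h arrays below both 8 h arrays, such as NOLC1 at -0.37 and the helicase DDX21 at -0.34. Of 30 epithelial and keratin genes 23 were negative with a median of -0.09, which became 0.05 with median scaling, with PKP2, a desmosome protein, at -0.55 and KRT80 at -0.43 after KRT15. Of 19 genes of TGF-beta and BMP feedback 12 were negative with a median of -0.13, which became 0.03, with TGFBI, a matrix protein, at -0.67. Reference genes gave no call: 10 were tested, with log2 fold changes of -0.34 to 0.06, and the lowest belonged to the PPIA probe, which was low only at 4 h.

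The comparison of lines asked which differences between 24 h and 8 h were larger in MDA-MB-468 than in MDA-MB-231, in 1 fit over the 12 arrays without OTX015. It called 14 of 23984 probes (0.0584%), 4 more positive in MDA-MB-468 (0.0167%) and 10 more negative (0.0417%), while 2384 had an unadjusted p under 0.05. The 4 were all of the ATF4 list: CTH at 1.01, DDIT4 at 0.79 (adjusted p = 0.0349), SLC7A5 at 0.75 (adjusted p = 0.0499) and PCK2 at 0.71 (adjusted p = 0.0275). In MDA-MB-231 their own log2 fold changes were 0.13, -0.09, -0.21 and -0.03. Between 24 h and 8 h alone MDA-MB-231 had 17 of 20416 probes called (0.0833%), 8 higher (0.0392%) and 9 lower (0.0441%), so few probes passed in either line.

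The genes more negative in MDA-MB-468 were CASP14 at -1.27, SNORD13 at -1.09, NDRG1 at -1.06, DKK1 at -1.02, SNORA12 at -0.87, TGFBI at -0.87, S100A4, a calcium-binding protein, at -0.78 and PKP2 at -0.63, beside 2 probes without a gene symbol at -1.03 and -1.37. Of these SNORA12, a small nucleolar RNA, differed mostly through MDA-MB-231, with -0.25 in MDA-MB-468 against 0.61 there. CASP14 read 5.88 to 6.06 on the MDA-MB-231 arrays without OTX015, not well above background there, so its value sets a change in MDA-MB-468 against a probe that has only a bound in the other line. No call of this comparison was made with median scaling or with the arrays of 8 and 24 h alone, and 6 were made, none of them positive, with DMSO or untreated as a block. Leaving out 1 array gave from 0 to many calls, with the most without the DMSO 24 h array of MDA-MB-468. The 24 h pair of MDA-MB-468 then no longer added to the spread, so that fit could not test the calls.

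The arrays of 4 h stood apart from the later ones. At 8 h relative to 4 h, 2692 of 21665 probes were called (12.4%), 1906 higher (8.8%) and 786 lower (3.63%), and at 24 h relative to 4 h 2957 were called (13.6%), 1818 higher (8.39%) and 1139 lower (5.26%). Of these, 1500 probes were higher and 475 lower in both. The balance depended on scaling: with arrays brought to a common median in place of quantile normalization, 12091 probes were called at 8 h relative to 4 h, 997 higher and 11094 lower, and the median probe moved by -0.52. The correlation over probes was 0.961 to 0.966 between arrays of 8 h and 4 h, where the arrays of 24 h and 8 h had 0.986 to 0.994.

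Among these calls was a set of 449 probes that were lower by over 1 log2 unit on both 4 h arrays than on every 8 h and 24 h array, while 8 probes showed the opposite. The excess of low probes turned around with arrays scaled to a common median, where 235 were low only and 418 high only at 4 h. All 449 were among the 1906 called at 8 h, where the rule that picked them had already fixed that they met the fold threshold. Their median was 6.91 with DMSO and 6.89 untreated at 4 h, then 8.95 and 8.84 at 8 h and 8.73 and 8.85 at 24 h. The OTX015 array of 4 h had a median of 8.61 at these probes, over 1 log2 unit above both undrugged arrays of its time at 374 of the 449. In MDA-MB-231 the medians were 8.43 to 8.69 on the 6 arrays without OTX015, the median difference of 4 h from the later times was 0.05, and no probe of the set was low in this way. The low values were thus found on 2 arrays of 1 line and 1 time.

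**Figure D5:**
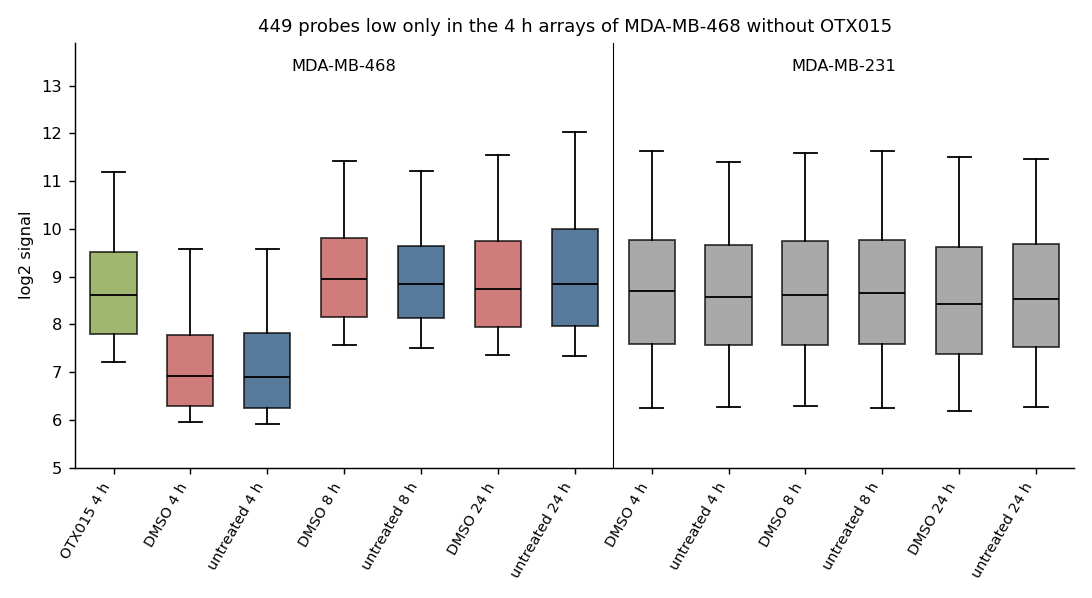
Log2 signal of the 449 probes that were low only at 4 h, on each array of MDA-MB-468 without OTX015 and the OTX015 array of 4 h (left) and of MDA-MB-231 without OTX015 (right); boxes show the quartiles and median over probes and whiskers the 5th and 95th percentiles. The DMSO and untreated arrays of 4 h in MDA-MB-468 have medians of 6.91 and 6.89, and all other arrays shown have 8.43 to 8.95.

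Other probes of the same genes were mostly not low at 4 h. Of the 449 probes 336 had 1 gene symbol, for 310 genes, and 166 of these genes had a further 238 tested probes outside the set. The median difference of 4 h from the later times was -0.10 at these 238, and 179 lay within 0.5 of the later mean, 56 were lower by at least 0.5 and 3 were higher. For ALDOA, a glycolytic enzyme, the low probe read 12.59 and 12.41 at 8 h against 6.91 and 6.72 at 4 h with DMSO and untreated in turn, while another probe read 11.90 and 11.87 against 11.68 and 11.60. For ACTG1, a cytoplasmic actin, the low probe read 12.98 and 12.90 against 7.77 and 7.86 in the same order, and another 13.58 and 13.60 against 13.29 and 13.41. Probes of 1 gene therefore gave different answers for the same arrays.

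The brightest genes of the set by the rule used here were ACTB, XPNPEP3, TUBB, BANF1, CDKN2AIPNL and TECR, with log2 fold changes of 1.10 to 1.73 between 8 h and 4 h, and ACTB had 2 more probes at 13.40 to 13.57 at 4 h. At 109 of the 449 probes both 4 h arrays were below the floor, so only a bound can be given. By these probes the signal at 8 h was at least 16.3-fold that at 4 h for SDF4 and at least 14.7-fold for AP1S1, with the 4 h arrays set to the lowest signal above the floor. For KLK5 it was at least 9.6-fold by 1 such probe, while its other probes, above the floor at 4 h, had log2 fold changes of only 1.43 and 1.58. For RNA28SN5 it was at least 7.45-fold by 1 probe and at least 1.29-fold by another. Of the genes described between 24 h and 8 h, CASP14, KLK5, RNA28SN5 and PPIA were measured by probes of the set, beside those led by the untreated 24 h array, while ALDOA, PGAM1 and SLC3A2 were described by other probes than theirs in the set. In all, 60 of the 278 probes at or above 0.5 and 22 of the 129 at or below -0.5 belonged to it. With both 4 h arrays left out of the main comparison there were 0 calls, the lowest adjusted p by limma was 0.265, and 2124 probes had an unadjusted p under 0.05; the part of the low probes in this was not tested.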

How the data were processed

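Cells were cultured in DMEM that held serum and glutamine, RNA was labelled as biotin cRNA and hybridised to Illumina HumanHT-12 v4 BeadChips, and signals were read in GenomeStudio per the submitters' processing notes. The authors deposited 1 table of probe intensities without normalization and 1 of normalized log2 values. The deposited intensities of 18 arrays (47231 probes) were the start. They were corrected with normexp (offset 50), quantile normalized over all arrays and log2 transformed, which forces 1 distribution on arrays of different brightness. The deposited log2 values served as an alternative. The number of arrays limits the precision.

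Olfactory receptor genes, which such cells should not express, set each array's floor at the 95th percentile of 457 probes. A probe was tested if it exceeded this floor on at least 2 arrays of a fit, with lmFit and eBayes (limma 3.58.1, R 4.3.3), with time as the group, after a check on simulated data. Thresholds were an adjusted p of 0.05 and a log2 fold change of 0.5. Of all probes, 30113 had 1 gene symbol, of which 30074 were matched to RefSeq by Entrez ID, and a gene was described by its brightest tested probe unless its probes are given one by one. Genes were named as the 12 largest changes in each direction between 24 h and 8 h, called probes first and then genes whose groups did not overlap; the called members of each list; the 6 largest line differences in each direction; and the 6 brightest genes low only at 4 h. Other members, and the promoters printed, were named after their values were seen. The samples and gene lists were chosen with earlier results of these data known.

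For a probe below the floor on both arrays of a time, the bound on a fold change used the lowest signal above the floor in place of its own where that was higher. Alternatives were other background, scaling and filter choices, a block, moderation with a trend, the deposited values, the arrays of the compared times alone and each array left out. Those for the median of the ATF4 list were chosen after seeing the data. DMSO and untreated carry the same labels across times, but the correlations of their difference were -0.01 between 8 and 4 h, 0.15 between 24 and 4 h and -0.19 between 24 and 8 h, so arrays were not paired.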

Additional observations from a re-analysis of the deposited data

Results flagged for a closer look

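For 14 probes the difference between 24 h and 8 h was larger in MDA-MB-468 than in MDA-MB-231, or ran the other way, by the limma test of the difference itself. It was 1.01 log2 units for CTH, 0.791 for DDIT4, 0.749 for SLC7A5 and 0.710 for PCK2. It was -0.631 for PKP2, -0.779 for S100A4, -0.865 for TGFBI, -0.869 for SNORA12, -1.02 for DKK1, -1.06 for NDRG1, -1.09 for SNORD13 and -1.27 for CASP14, whose probe was not well above background in MDA-MB-231, and -1.03 and -1.37 for 2 probes without a gene symbol.

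In MDA-MB-468 given OTX015 for 4 h, whose array entered no test, the probes that were low only on the undrugged arrays of 4 h lay above the mean of those 2 arrays by a median of 1.51 log2 units.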

How the results depend on the processing

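Counts of calls depended on scaling and on single arrays. Between 24 h and 8 h, against 6 calls as reported, there were 11 without background correction, 0 with median scaling (lowest adjusted p 0.0850), 2 with the arrays of the fit normalized alone, 10 with the deposited log2 values, 50 without a filter, 2 with probes above the floor on every array, 0 with untreated or DMSO as a block (lowest adjusted p 0.106) and 0 with the arrays of 8 and 24 h alone; all 6 were among the 11, the 10 and the 50. Leaving out 1 array gave 0 to 1335. The median of the ATF4 list, 0.422, was 0.610 with median scaling and 0.381 to 0.493 with 1 array left out. Between 8 h and 4 h, median scaling gave 12091 calls against 2692, and leaving out 1 array 1646 to 2810; the low end came without the DMSO 8 h array, and 1719 and 1704 were made without the DMSO and the untreated 4 h array. Between 24 h and 4 h it gave 10562 (1211 higher and 9351 lower, with the median probe at -0.40) against 2957, and leaving out 1 array 1820 to 4140. DMSO against untreated gave 0, and 0 to 1 with 1 array left out. The line difference gave 14, 0 with median scaling or the arrays of the times alone, 6 with the block, and 0 to 1435 with 1 array left out. Probes low only at 4 h numbered 449, 235 with median scaling (where 418 were high only at 4 h) and 457 to 512 with 1 array left out. Leaving out an array relaxes the rule for this set, so apart from the filter that count could not fall. Of the values for genes named by the rule given with the methods, none changed direction under an alternative, 477 kept their side of the threshold, 39 gained a call and 139 lost one. Among other genes in the text, EGR1 between 8 h and 4 h had 0.64 and, with median scaling, -0.29. CTH between 24 h and 8 h ranged over 0.916 to 1.22, with adjusted p of 6.5e-05 to 0.561.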

Other observations

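Other lists between 24 h and 8 h in MDA-MB-468 had no member that passed. Of 10 tested genes of the EGFR family and its ligands 8 were positive with a median of 0.12, led by ERRFI1, an inhibitor of EGFR, at 0.54 and ERBB2 at 0.51, while EGFR itself had 0.10. Of 15 genes of the unfolded protein response 11 were positive with a median of 0.11, with SYVN1 and XBP1 at 0.43 and 0.42 and the chaperone HSPA5 at 0.27, but CALR at -0.25. Of 17 genes of FOXO and PI3K feedback, PIK3IP1 had 0.38 and PDK4 had -0.45, with a median of 0.14. Of 23 squamous and barrier genes 17 were negative with a median of -0.09, led by the protease KLK6 at -0.71. The 34 genes of mitosis and the spindle divided evenly into 17 positive and 17 negative with a median of 0.00, and 21 of 33 genes of DNA replication were negative with a median of -0.04, which became 0.12 with median scaling.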
